A study of Mus musculus with 6 samples.

Results

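The cells described here are CD8 T cells of mouse melanomas that carried at least 1 transcript of Havcr2, the gene of the inhibitory receptor TIM-3. They were chosen by measured counts of unique molecular identifiers (UMIs), each of which stands for 1 captured RNA molecule. A barcode was kept with at least 500 gene UMIs, at most 10% mitochondrial UMIs, and a leading hashtag of at least 10 counts that held at least 70% of its hashtag counts. Of 20407 such cells, 1817 had at least 2 UMIs of Cd3e, Cd3d and Cd3g together, at least 2 of Cd8a and Cd8b1 together, none of Cd4, Trdc or Foxp3, and fewer than 5 of the complement genes C1qa, C1qb and C1qc. Of these CD8 T cells, 507 had at least 1 Havcr2 UMI (Havcr2-positive) and 1310 had none (Havcr2-negative).

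The cells came from a CITE-seq study, in which messenger RNA and antibody tags on the cell surface are counted in the same cells. Tumours grew from YUMM1.7 cells, a mouse melanoma line with an activated Braf gene, of which 250000 were injected under the skin of 8-week-old female C57BL/6JRccHsd mice. LysM-Cre mice (GRf/f-LysMCre in the labels) carried 2 floxed alleles of Nr3c1, the glucocorticoid receptor gene, and a Cre recombinase under the Lyz2 promoter of myeloid cells. Floxed mice (GRf/f) carried the same alleles without Cre, so the floxed gene was shared by all mice. Each genotype received 12.5 mg/kg of anti-PD-1 or of an isotype antibody, 2 times per week for 3 weeks from about day 7, and tumours were taken after 28 days. This gave 4 conditions (LysM-Cre anti-PD-1, LysM-Cre isotype; floxed anti-PD-1, floxed isotype) of 4 mice each. Cells of 8 mice were hashtagged, mixed, stained and sorted for CD45 in each of 2 pools (E5 and E6), with mice of the 4 conditions in either pool.

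TIM-3 is a surface receptor that appears on T cells after repeated stimulation through the antigen receptor, and in tumours it is found on CD8 T cells that also carry PD-1, LAG-3 and CTLA-4. Such cells are commonly called exhausted. They are thought to arise from a self-renewing pool of CD8 T cells that express the transcription factor TCF-1 (gene Tcf7), and they keep cytotoxic granules while losing features of memory cells. The glucocorticoid receptor gene was targeted in myeloid cells of the LysM-Cre mice, and the Lyz2 promoter is not a T cell promoter.

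The surface panel read 3 proteins on which the comparison below turns, each through an antibody that carries a DNA tag. The tags are shown because the protein values are counts of these sequences. The capitals mark the whole tag of 15 bases, read 5′ to 3′, as printed in the submitters' antibody table.
TIM3: ATTGGCACTCAGATG
CD223: ATTCCGTCCCTAAGG
CD279: GAAAGTCAAAGCACT
TIM3 is the product of Havcr2 (chromosome 11, 46454931 to 46481255, GRCm38.p6), which lies on the same chromosome as Tcf7 (52246527 to 52283383). CD223 is LAG-3, the product of Lag3 (chromosome 6, 124904359 to 124912434), and CD279 is PD-1, the product of Pdcd1 (chromosome 1, 94038305 to 94052553). The same table prints 2 of the 8 hashtags with 1 identical sequence, and hashtags were taken by their names in the matrices.

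Havcr2 counts were low in most of the chosen cells. In all they held 1069 Havcr2 UMIs, with 264 cells (52.1%) at 1 UMI, 106 at 2 UMIs and 137 at 3 or more, up to 11. Cells just inside the threshold, at 1 UMI, had a median of 6688 gene UMIs, whereas cells just outside it, at 0, had a median of 5688. The cells with 2 or more had a median of 9050. The positive cells together had a median of 7686 gene UMIs and 2433 genes, against 5688 and 1960 in the negative cells. The part of depth in the detection of Havcr2 was not tested. When every cell was thinned to 2000 gene UMIs, which left out 24 shallower cells, 217 of the 501 positive cells kept a Havcr2 UMI (43.3%). Of 86 B cells, which should not express the gene, 2 (2.33%) had a Havcr2 UMI at a median of 3686 gene UMIs, and after thinning 0 of 78 had, which allows a share of up to 4.62% (exact 95% binomial limit, counting error only). No barcode of a CD8 T cell occurred in both pools, and no doublet caller was run. The B cell shares do not tell whether a Havcr2 UMI in a positive cell was its own. The part of RNA from myeloid cells in the Havcr2 counts was not tested.

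The other markers of the label were also present in these cells. Shares of cells with a UMI of a gene other than Havcr2 keep cells in the class of their full counts, also after thinning. With all cells thinned to 2000 gene UMIs, Pdcd1 was seen in 34.9% of positive cells, 14.4% of negative cells and 0 of 78 B cells (unthinned 68.4%, 28.3% and 0%). Cxcr6, a chemokine receptor of tissue-resident T cells, was seen in 65.7%, 49.8% and 0 of 78 (unthinned 92.9%, 75.5% and 0%). Lag3 was seen in 44.5%, 15.2% and 1.28% (unthinned 72.0%, 29.8% and 1.16%). Macrophage RNA was in all of them: C1qa was seen in 16.8%, 25.2% and 29.5% and Apoe in 58.9%, 66.6% and 89.7% of positive, negative and B cells after thinning, and in 53.3%, 54.6% and 52.3% and in 96.3%, 95.3% and 97.7% before. The C1q genes were at 0 in 66 of the positive cells (13.0%) and 207 of the negative cells (15.8%). Positive, negative and B cells were all capped at fewer than 5 C1q UMIs before thinning. Their median depths were 7686, 5688 and 3686 gene UMIs, so the order of the C1qa shares after thinning is partly set by this cap.

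The first comparison asked how many CD8 T cells carried Havcr2 in each condition. In LysM-Cre anti-PD-1 mice 1 to 4 the share was 26.9%, 37.8%, 42.9% and 46.4%, and in LysM-Cre isotype mice it was 9.60%, 23.2%, 25.4% and 15.2%. Every LysM-Cre mouse given anti-PD-1 was above every LysM-Cre mouse given isotype. Floxed anti-PD-1 mice 1, 3 and 4 had 26.3%, 40.0% and 51.7%, and floxed isotype mice had 26.9%, 33.8%, 31.6% and 27.7%, and these groups overlapped. Floxed anti-PD-1 mouse 2 gave 9 CD8 T cells, of which 1 was positive, and was left out of this share. The means were 38.5 ± 8.49% (SD, n = 4) with anti-PD-1 and 18.3 ± 7.30% (n = 4) with isotype in LysM-Cre mice, and 39.3 ± 12.7% (n = 3) with anti-PD-1 and 30.0 ± 3.25% (n = 4) with isotype in floxed mice.

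Within LysM-Cre mice the share was 20.1 percentage points higher with anti-PD-1 than with isotype (exact two-sided permutation p = 0.0286, the smallest possible, adjusted p = 0.0857 over 6 share tests). The difference was 15.9 points in pool E5 and 24.4 points in pool E6, and relabelling within pools gave an exact p of 0.0556, again the smallest possible. Within floxed mice the difference was 9.33 points (exact p = 0.286, adjusted p = 0.429), with −4.06 points in pool E5 and 16.2 points in pool E6. With isotype, the share was 11.7 percentage points lower in LysM-Cre than in floxed mice, a difference of −11.7 (exact p = 0.0286, adjusted p = 0.0857, −14.0 in pool E5 and −9.39 in pool E6), without overlap of the mice. With anti-PD-1 the difference of LysM-Cre minus floxed mice was −0.85 points (exact p = 0.914, adjusted p = 0.914). None of the share tests passed after adjustment. After thinning, the LysM-Cre anti-PD-1 and isotype mice had 20.03 ± 5.69% and 7.85 ± 4.11%, the groups overlapped, and the exact p was 0.0571. The genotype difference with isotype was −5.32 points after thinning (exact p = 0.114), and these groups overlapped too. In cells with a leading hashtag share of at least 90%, the groups of both contrasts overlapped (exact p = 0.0571 each). With at least 2 Havcr2 UMIs neither did (exact p = 0.0286 each). With C1q at 0, the genotype difference with isotype was −2.19 points in 4 LysM-Cre and 3 floxed mice (exact p = 0.743).

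Taken over all assigned cells rather than over CD8 T cells, the Havcr2-positive cells made up 2.50 ± 0.416% in LysM-Cre mice given anti-PD-1, 2.03 ± 1.005% in those given isotype, 1.65 ± 1.03% in floxed mice given anti-PD-1 and 3.25 ± 1.73% in those given isotype (SD, n = 4 each). The difference of anti-PD-1 minus isotype was 0.474 points in LysM-Cre mice (exact p = 0.429, adjusted p = 0.514) and −1.60 points in floxed mice (exact p = 0.171, adjusted p = 0.343). Without floxed isotype mouse 2 the value in floxed mice was −0.741, and without LysM-Cre isotype mouse 3 or 4 the value in LysM-Cre mice was 0.947 or 0.171. The 4 LysM-Cre anti-PD-1 mice gave 181 CD8 T cells of 2746 assigned cells and the 4 LysM-Cre isotype mice 641 of 6552, and the assigned cells were thus fewer in all with anti-PD-1. The 4 floxed anti-PD-1 mice gave 111 of 2313 and the 4 floxed isotype mice 884 of 8796. CD8 T cells were 6.85 ± 2.32% of assigned cells with anti-PD-1 and 11.5 ± 4.37% with isotype in LysM-Cre mice (4.41 to 9.77% and 7.36 to 16.6%), and 5.08 ± 0.751% and 10.6 ± 4.60% in floxed mice (4.03 to 5.65% and 6.60 to 17.2%; SD, n = 4 each). The ranges overlapped in LysM-Cre mice and not in floxed mice, and these shares carry no test.

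**Figure D1:**
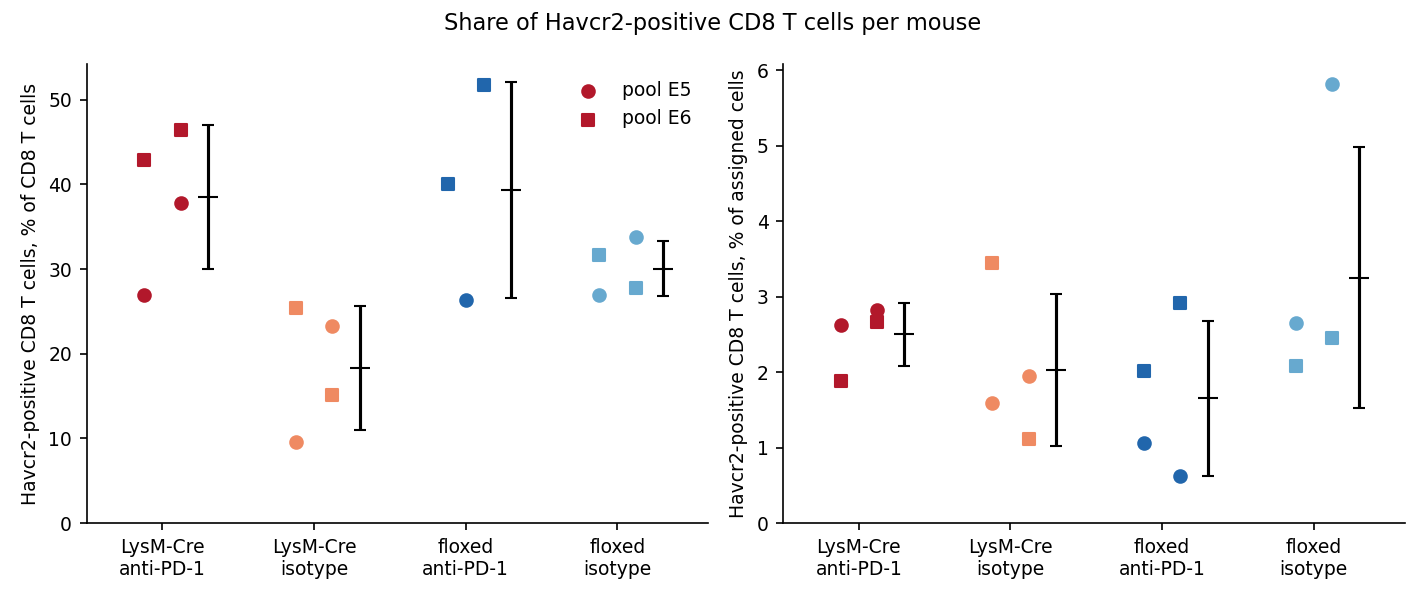
Share of Havcr2-positive cells among CD8 T cells (percent, left panel) and among all assigned cells (percent, right panel), with 1 point per mouse, circles for pool E5, squares for pool E6, and bars for the mean and SD of each condition. The LysM-Cre anti-PD-1 mice lie between 26.9% and 46.4% of CD8 T cells, and the LysM-Cre isotype mice between 9.60% and 25.4%.

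The second comparison set Havcr2-positive against Havcr2-negative CD8 T cells of the same mouse. Counts were summed per mouse and population in the 15 mice with at least 10 cells of each, and levels are CPM, the summed counts scaled to 1000000 gene UMIs. The edgeR quasi-likelihood test with the mouse as block called 660 of 3250 genes at an adjusted p under 0.05 (20.3%). Of these, 312 were higher in Havcr2-positive cells (9.6%) and 348 were lower (10.7%), and the median log2 change of all genes tested was 0.01. For the surface antibodies, 22 of 84 passed (26.2%), 13 of them higher (15.5%) and 9 lower (10.7%). In the 7 mice of pool E5 alone 386 genes were called, 306 of them shared with the 660, and in the 8 mice of pool E6 alone 255, of which 233 were shared. After thinning, 96 of 986 genes in 8 mice were called, and 85 of them were among the 660. For this fit cells were classed by their thinned counts, so a positive cell that lost its Havcr2 UMI was taken as negative. No floxed anti-PD-1 mouse was among these 8 mice. The genes of the selection rule were left out of these tests, and the fits by pool were chosen after seeing the data.

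Other inhibitory receptors accompanied Havcr2. Of 11 genes of this list 6 could be tested, 4 were higher in Havcr2-positive cells and 2 did not pass, with a median log2 change of 0.93. Lag3, whose product binds MHC class II, had 92.4 CPM at the lowest, 291 at the median and 586 at the highest in the positive cells of 15 mice, and 26.8, 122 and 205 CPM in the negative cells. The ranges overlapped between mice, but within every one of the 15 mice the positive cells were higher (log2 change 1.32 ± 0.13 SE, edgeR adjusted p = 1.15e-07). Pdcd1, the gene of PD-1, had 104, 262 and 344 CPM in positive cells and 35.2, 117 and 239 CPM in negative cells, again higher in 15 of 15 mice (1.05 ± 0.11, adjusted p = 5.66e-07). Entpd1, which encodes the ATP-degrading enzyme CD39, averaged 77.3 ± 25.4 CPM in positive and 30.6 ± 14.6 CPM in negative cells (SD, n = 15 each, log2 change 1.14), and Ctla4, a competitor of CD28 for its ligands, 133 ± 70.7 and 66.4 ± 39.1 CPM (log2 change 0.81), each higher in 14 of 15 mice. The members that did not pass were Cd160, with a log2 change of 0.03 ± 0.14, and Vsir, which encodes VISTA, with −0.16 ± 0.15. Tigit, Btla, Cd101, Cd244a and Nrp1 were too low to be tested.

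**Figure D2:**
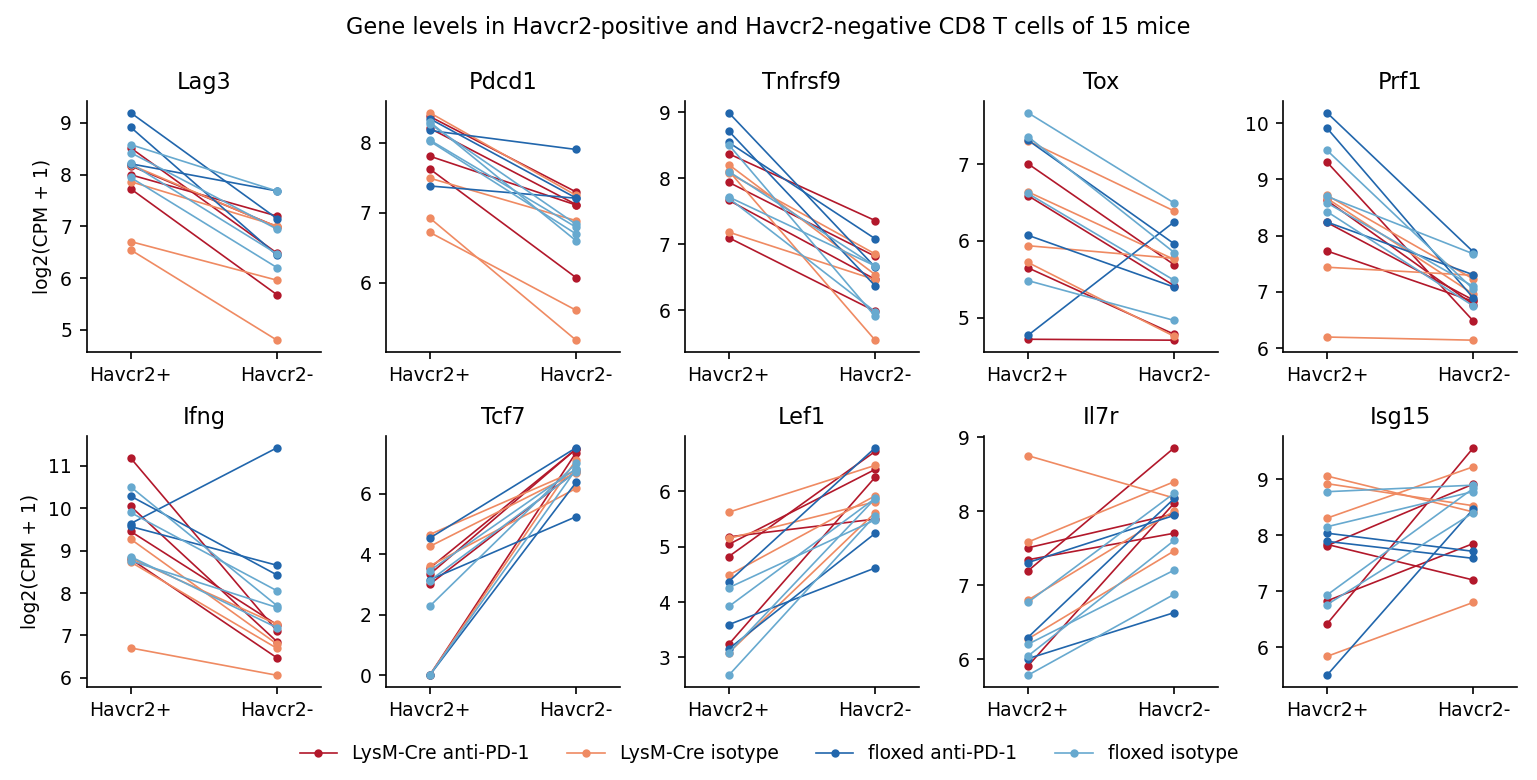
Levels of 10 genes in Havcr2-positive (left of each panel) and Havcr2-negative CD8 T cells (right), as log2(CPM + 1), with 1 line per mouse (n = 15) coloured by condition. Lag3, Pdcd1 and Tnfrsf9 are higher and Tcf7 is lower in the positive cells of every mouse.

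The surface proteins were read by antibodies and were not part of the rule. Their levels are antibody CPM, scaled to 1000000 summed antibody counts and computed without 6 cells in which 1 antibody held at least 50% of the counts. The tests kept these cells. Without them, a setting chosen after seeing the data, edgeR called 24 antibodies, of which 21 were among the 22 called with them, and the call of TCRbeta was lost (adjusted p = 0.162). TIM3 had 2443 antibody CPM at the lowest, 5192 at the median and 13941 at the highest in positive cells, and 703, 1424 and 2920 in negative cells. It was higher in the positive cells of all 15 mice (log2 change 1.79 ± 0.18 SE, edgeR adjusted p = 6.1e-07), so barcodes chosen by 1 or more Havcr2 UMIs also had relatively more counts of this antibody. The call of TIM3 was lost in the fit with C1q at 0, which held fewer mice. The part of myeloid cells in the TIM3 values was not tested. CD223 had 601, 2318 and 3645 antibody CPM in positive and 461, 845 and 1338 in negative cells (1.25 ± 0.14, adjusted p = 1.02e-06, 15 of 15 mice). CD279 averaged 3577 ± 1076 in positive and 1962 ± 570 in negative cells (log2 change 0.90), and CD39, the product of Entpd1, 43224 ± 10487 and 23942 ± 9700 (0.92), each higher in 15 of 15 mice. TIGIT passed at an adjusted p of 0.0458 with a log2 change of 0.84 ± 0.30, but its mean log2 difference was −0.57 in pool E5 and 0.996 in pool E6. Its call was lost in 5 of 15 fits that left out a mouse, those without LysM-Cre isotype mouse 2, floxed anti-PD-1 mouse 4 or floxed isotype mouse 2, 3 or 4.

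**Figure D3:**
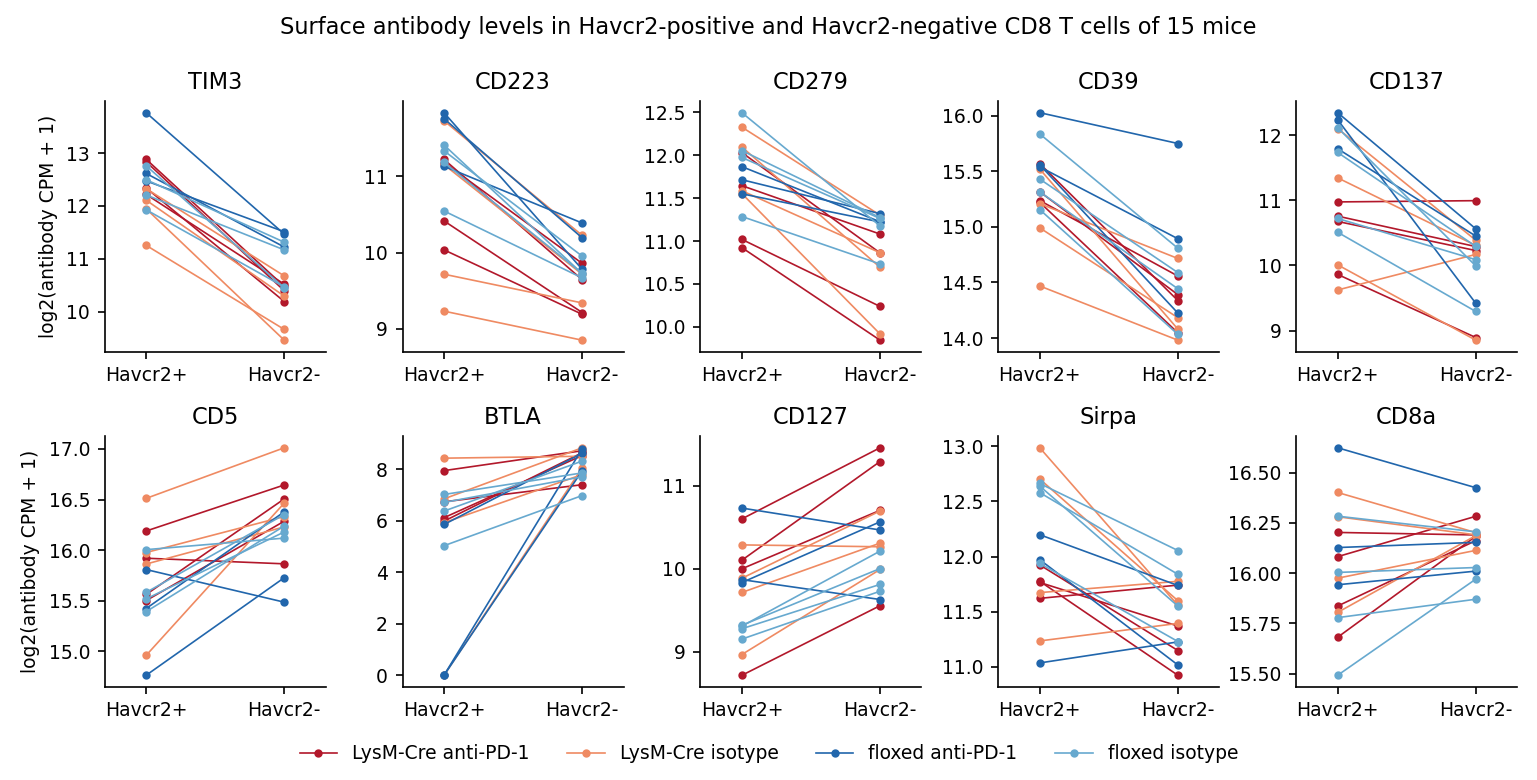
Levels of 10 surface antibodies in Havcr2-positive (left of each panel) and Havcr2-negative CD8 T cells (right), as log2(antibody CPM + 1), with 1 line per mouse (n = 15) coloured by condition. TIM3, CD223 and CD279 are higher and BTLA is lower in the positive cells of every mouse. The mean of BTLA in positive cells is near those of the isotype controls Hamster and Rat_IgG1.

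Genes of naive, memory and progenitor T cells were lower. Of 14 genes on this list 7 could be tested, and 7 were lower in Havcr2-positive cells, with a median log2 change of −1.20. Tcf7, the gene of TCF-1, had 0 CPM at the lowest, 7.91 at the median and 24.1 at the highest in positive cells, and 36.8, 111 and 182 CPM in negative cells. The ranges did not overlap, and Tcf7 had the smallest adjusted p of all genes (log2 change −3.61 ± 0.22, edgeR adjusted p = 5.15e-11). After thinning, 2.59% of positive cells, 17.3% of negative cells and 0 of 78 B cells had a Tcf7 UMI (unthinned 6.90%, 35.3% and 2.33%).

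Satb1, a chromatin organiser, also separated without overlap, with 86.8 ± 28.3 CPM in positive and 185 ± 49.3 CPM in negative cells (SD, n = 15, log2 change −1.20). Lef1, a partner of TCF-1 in the same family, was lower in 15 of 15 mice (19.9 ± 13.0 against 62.0 ± 24.8 CPM, −1.91). Il7r, the receptor of the survival cytokine IL-7 (−1.11), Klf2, which drives genes of T cell exit from tissue (−1.11), and Foxp1, which holds T cells in quiescence (−0.68), were lower in 14, 14 and 11 of 15 mice. On the surface CD127, the product of Il7r, was lower as well, with 908 ± 374 antibody CPM in positive and 1371 ± 602 in negative cells (−0.61 ± 0.12, edgeR adjusted p = 0.000967, 11 of 15 mice).

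Among transcription factors of activated and exhausted T cells, 8 of 15 could be tested, 6 were higher and 1 was lower, with a median log2 change of 0.69. Tox, a factor needed for the exhausted state, averaged 94.9 ± 55.8 CPM in positive and 50.4 ± 20.3 CPM in negative cells (log2 change 0.84 ± 0.14, edgeR adjusted p = 8.89e-05, higher in 14 of 15 mice). Nr4a2, a nuclear receptor induced by antigen receptor signals, averaged 188 ± 94.6 and 90.6 ± 61.9 CPM (1.01) and was higher in 15 of 15 mice. The Notch cofactor Rbpj (0.84), Bhlhe40 (0.77), the calcium-dependent factor Nfatc1 (0.48) and Id2, which promotes effector cells (0.33), were also higher. Ikzf2, the gene of Helios, was lower (−0.71 ± 0.22, adjusted p = 0.0271), and this call was lost without floxed isotype mouse 3 or 4. Nr4a1 had a log2 change of 0.61 ± 0.28 (adjusted p = 0.131). Batf, Eomes, Irf4, Maf, Nr4a3, Prdm1 and Tox2 were too low to be tested.

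Havcr2-positive cells carried more RNA of cytotoxic and secreted effectors. Of 14 cytotoxic genes 11 could be tested, 7 were higher and none was lower, with a median log2 change of 0.37. Prf1, the pore-forming perforin, had 72.3 CPM at the lowest, 394 at the median and 1163 at the highest in positive cells, and 69.5, 124 and 208 CPM in negative cells. It was higher in 15 of 15 mice (1.55 ± 0.17, edgeR adjusted p = 8.63e-07). Gzmb averaged 1275 ± 858 CPM in positive and 646 ± 394 CPM in negative cells (0.83, 13 of 15 mice), and Gzmf, another granzyme, 325 ± 508 and 31.5 ± 42.7 CPM (3.13, 10 of 15 mice). Nkg7, a granule protein (0.37), the granzyme B inhibitor Serpinb9 (0.49), Serpinb6b (0.77) and the granule proteoglycan Srgn (0.30) passed as well. The calls of Serpinb9 and Srgn were lost in 4 and 10 of 15 fits that left out a mouse. Gzma had a log2 change of −0.18 ± 0.48, Gzmk 0.12, Ctsw −0.17 and Fasl 0.15, and none of these passed.

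Of 14 cytokine and chemokine genes, 9 could be tested and 4 were higher, with a median log2 change of 0.57. Ccl3, an inflammatory chemokine, had 236 CPM at the lowest, 808 at the median and 1980 at the highest in positive cells, and 28.9, 77.6 and 2809 CPM in negative cells. It was higher in 14 of 15 mice (2.72 ± 0.33, edgeR adjusted p = 3.07e-06), and the highest negative value came from the exception, floxed anti-PD-1 mouse 1. Ifng had 103, 702 and 2333 CPM in positive and 65.7, 152 and 2756 CPM in negative cells, with the same exception (1.78 ± 0.28, adjusted p = 5.89e-05). Ccl4, of the same chemokine family (1.95), and Csf1, a growth factor of macrophages (1.05), were also higher in 14 of 15 mice. Tnf had a log2 change of −0.07, and Ccl5 (0.19), Xcl1 (0.29), Ltb (−0.25) and Spp1 (0.57) did not pass.

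Costimulatory and lectin receptors moved in part. Tnfrsf9, the gene of 4-1BB, which marks cells recently stimulated through the antigen receptor, had 136, 274 and 509 CPM in positive and 45.9, 92.2 and 163 CPM in negative cells (lowest, median and highest of 15 mice). It was higher in 15 of 15 mice (log2 change 1.48 ± 0.13, edgeR adjusted p = 3.17e-08), and its protein CD137 averaged 2647 ± 1526 and 1118 ± 421 antibody CPM (1.13, 13 of 15 mice). Tnfrsf4, the gene of OX40 (0.78), and Tnfrsf18, the gene of GITR (0.47), were higher too, making 3 of 7 tested genes of the list, with a median of 0.33. Icos, Cd28, Cd27 and Cd226 did not pass. Of the killer lectin receptors, Klrd1, the gene of CD94 (0.41), its partner Klrc1, the gene of NKG2A (0.47), and Klre1 (0.61) were higher, 3 of 5 tested, with a median of 0.41.

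Homing and residence genes went both ways, with 4 higher and 3 lower of 11 tested and a median of 0.12. Rgs16, a brake on chemokine receptor signalling, was higher in 15 of 15 mice, with 110, 336 and 527 CPM in positive and 11.8, 68.2 and 125 CPM in negative cells (lowest, median and highest, 2.27 ± 0.17, adjusted p = 3.1e-09). Rgs1, of the same family, was higher in 15 of 15 mice (0.98), and Cxcr6 (0.54) passed as well. Cxcr3, a receptor of interferon-induced chemokines (−1.05), the integrin Itgb1 (−0.71) and Cd69, an early activation and residence marker (−0.68), were lower. The antibody against CD103, an integrin of tissue-resident T cells, was lower in positive cells (2348 ± 2507 against 4060 ± 2447 antibody CPM, −1.42, 12 of 15 mice), as was that against its partner ITGB7 (−1.77). Split by Havcr2 UMIs, the mean of CD103 was lower only in cells with 2 or more (values below). A single negative cell of floxed anti-PD-1 mouse 1 held 171532 antibody counts, 99.2% of them ITGB7, and without the 6 cells dominated by 1 antibody the ITGB7 change was −1.24 (adjusted p = 0.0037). Of the genes of immediate antigen receptor response, Tnfrsf9 was higher and Cd69 lower, and Egr1 (0.04), Dusp2 (0.16), Cd5 (−0.17) and Nr4a1 did not pass, with a median of 0.10 over 6 tested.

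Cell cycle genes were higher, 10 of 15 tested, with a median log2 change of 0.66, and none was lower. Pclaf, a partner of the replication clamp, averaged 237 ± 146 CPM in positive and 102 ± 63.2 CPM in negative cells (1.01 ± 0.28, edgeR adjusted p = 0.0109, 11 of 15 mice). Ube2c (0.99), Ccnb2 (0.86), Tyms (0.81), Cdk1 (0.79) and Birc5 (0.66), which act in division or nucleotide synthesis, also passed. The size differed between pools: the mean log2 difference of Pclaf was 0.209 in E5 and 2.053 in E6, that of Ube2c −0.13 and 1.56, and that of Stmn1 −0.18 and 0.92. Mki67 (0.49, adjusted p = 0.0698) and Top2a (0.65, adjusted p = 0.0567) did not pass. After thinning, a Mki67 UMI was seen in 14.4% of positive cells, 6.89% of negative cells and 1.28% of B cells (unthinned 30.4%, 15.9% and 4.65%). The calls of Stmn1, Mcm3 and Hmgb2 were lost in 9, 10 and 6 of 15 fits that left out a mouse, and those of Birc5 and Ube2c without LysM-Cre isotype mouse 2.

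Of the hypoxia and glycolysis list, 5 of 7 tested genes were higher, with a median of 0.54. They were the glycolytic enzymes Tpi1 (0.66), Ldha (0.62), Gapdh (0.55), Pgk1 (0.54) and Pkm (0.47). Gapdh averaged 1983 ± 429 CPM in positive and 1287 ± 243 CPM in negative cells and was higher in 15 of 15 mice. The hypoxia genes Ndrg1, Hilpda, Egln3 and Bnip3 were too low to be tested.

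Interferon response genes were lower, 11 of 17 tested, with a median log2 change of −0.57, and none was higher. Ifit3 averaged 113 ± 99.4 CPM in positive and 213 ± 93.7 CPM in negative cells (−1.06 ± 0.23, edgeR adjusted p = 0.00186) and was lower in 14 of 15 mice. Ifit1, of the same RNA-binding family (−1.04), Rtp4 (−0.76), the ubiquitin-like Isg15 (−0.75), its protease Usp18 (−0.74) and the GTPase Irgm1 (−0.72) were lower as well. Irgm1 was lower in 15 of 15 mice. The call of Isg15 was lost without floxed isotype mouse 2. Irf7 (−0.34) and Ifi27l2a (0.16) did not pass. Ly6C, a surface protein induced by interferon and carried by memory CD8 T cells, averaged 35838 ± 10840 antibody CPM in positive and 51899 ± 7032 in negative cells (−0.56), a call that did not hold when floxed isotype mouse 1 or LysM-Cre anti-PD-1 mouse 1 was left out. Ly6c2, a gene of the protein, was lower too, with 1037 ± 442 CPM in positive and 1704 ± 423 CPM in negative cells (−0.85).

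The glucocorticoid response list, listed because the receptor gene is floxed in these mice, had 1 gene higher and 3 lower of 7 tested, with a median of −0.32. The metallothionein Mt1 was higher (0.74), and Il7r, Txnip (−0.42) and Ddit4 (−0.41) were lower. The call of Ddit4 was lost in 11 of 15 fits that left out a mouse. Tsc22d3, which encodes the glucocorticoid-induced protein GILZ, had a log2 change of −0.32 (adjusted p = 0.0796). Among 15 tested genes of dissociation and heat stress, Jund was higher (0.24) and Fosb lower (−0.63), with a median of −0.13. The call of Jund was lost without floxed isotype mouse 1.

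Outside the lists, the largest increases at an average of at least 10 CPM were those of the transcription factor Irf8 (234 ± 63.3 CPM in positive and 88.1 ± 52.3 CPM in negative cells, log2 change 1.43, 15 of 15 mice) and of Nrgn, a calmodulin-binding protein (345 ± 170 and 124 ± 65.5 CPM, 1.35, 13 of 15 mice). Plek (1.15), the integrin Itgav (1.13), the kinase inhibitor Camk2n1 (1.11), the glutamate transporter Slc17a6 (1.08), Lst1 (1.07), the chemerin-binding receptor Ccrl2 (1.05) and AA467197 (1.03) followed. The largest decreases were those of Cd7 (−1.54), the membrane protein Emb (−1.50, 127 ± 79.0 against 329 ± 97.1 CPM, lower in 15 of 15 mice), Mgp (−1.46), Kbtbd11 (−1.40), Gramd3 (−1.31), the transporter Slco3a1 (−1.28), the phosphatase Ssh2 (−1.26), Trp53inp1 (−1.19), Tespa1 (−1.16) and the sestrin Sesn3 (−1.16). Mgp, a matrix gene of stromal cells, had 251 ± 656 and 517 ± 889 CPM, and without the deepest 10% of cells its log2 change was 0.07. The summed fibroblast markers moved the same way, with 36.6 ± 60.4 CPM in positive and 212 ± 245 CPM in negative cells. Their part in the Mgp result was not tested.

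Several antibodies against proteins of myeloid cells were higher in Havcr2-positive cells. CD68 averaged 1020 ± 629 antibody CPM in positive and 603 ± 499 in negative cells (0.87), CD169 452 ± 285 and 256 ± 129 (0.82), CD80 6383 ± 2125 and 3962 ± 964 (0.67), Sirpa 4546 ± 1781 and 2917 ± 655 (0.60), CD115 304 ± 125 and 206 ± 71.9 (0.58) and CD64 1187 ± 504 and 813 ± 238 (0.51). PIRAB also passed (0.56), but not without floxed isotype mouse 3. The sum of 12 macrophage and monocyte genes, which include Ly6c2, a gene that T cells also carry, was 3239 ± 1624 CPM in positive cells (1250 to 8048) and 3518 ± 789 CPM in negative cells (2421 to 5143), with counts of 12 of 12 genes in each. C1qa, C1qb and C1qc are among them and were capped by the selection rule in both populations, so these sums are partly set by the rule. Without Ly6c2, a choice made after seeing the data, the other 11 genes summed to 2202 ± 1616 CPM in positive cells (794 to 7248) and 1814 ± 790 CPM in negative cells (791 to 3895), higher in the positive cells of 8 of 15 mice. Of the 5 of these genes that were tested, Ly6c2 was lower and Apoe (0.13), Lyz2 (0.23), Fcer1g (0.42) and Tyrobp (0.55) did not pass. The antibody isotype controls Rat_IgG1 (−0.92, adjusted p = 0.0744) and Hamster (−0.31) did not pass either. Positive cells had a median of 1082 antibody counts and negative cells 816. The part of depth and of macrophage RNA or other cells in these antibody values was not tested.

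Other antibodies lower in positive cells included BTLA, an inhibitory receptor of resting lymphocytes (93.0 ± 92.7 against 306 ± 105 antibody CPM, −1.63, 15 of 15 mice), CD5, a damper of antigen receptor signals (54293 ± 16690 against 80578 ± 20555, −0.59), CD274, the ligand PD-L1 (−0.38), and TCRbeta (−0.32). BTLA counts were low. With all cells kept, BTLA averaged 89.5 antibody CPM in positive and 279 in negative cells. The isotype controls averaged 111 and 146 (Hamster) and 71.6 and 167 (Rat_IgG1), so BTLA in positive cells was at about their level. The call of TCRbeta was lost in 11 of 15 fits that left out a mouse, and that of CD274 when floxed isotype mouse 1 or LysM-Cre anti-PD-1 mouse 1 or 2 was left out. CD8a (−0.09), CD3 (−0.24), CD4 (0.04), CD44 (0.12), CD25 (0.03), CD278, which is ICOS (0.05), CX3CR1 (−0.11), NK11 (−0.48) and CD86 (0.35, adjusted p = 0.0573) did not pass.

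Markers of B cells, NK cells and melanoma were low, and those of neutrophils and dendritic cells varied widely between mice. In the positive cells the summed B cell markers reached 37.9 ± 57.0 CPM, against 57.7 ± 27.4 in negative cells, and NK cell markers 32.8 ± 40.8 against 84.1 ± 44.9. The melanoma genes Dct, Tyrp1, Tyr and Sox10 were at 0 in positive cells, and the sum of 7 melanoma markers was 3.25 ± 4.11 CPM, against 5.51 ± 6.40. Neutrophil markers summed to 1327 ± 3791 CPM in positive and 357 ± 547 CPM in negative cells. Their medians were 152 and 135 CPM, with a highest value of 14900 CPM in positive cells. That value came from LysM-Cre anti-PD-1 mouse 3, whose 12 positive cells had 5835 CPM of S100a8. Dendritic cell markers summed to 1198 ± 2012 CPM in positive and 565 ± 203 CPM in negative cells. Their medians were 472 and 490 CPM. The highest value was 8205 CPM in the positive cells of LysM-Cre isotype mouse 4, which had 4078 CPM of Cd74. The share of such RNA in any gene of the comparison was not tested, and counts of calls in cells of lower C1q are these: with at most 2 C1q UMIs 488 genes were called, and with 0 C1q UMIs, at a minimum of 5 cells and in 6 mice, 12 of 1347, both settings chosen after seeing the data. These 6 mice had all been given isotype. Pdcd1, Tcf7, Rgs16 and Ccl3 passed in every alternative in which they could be tested, and in all 24 of the 93 called genes of the lists and the naming rule did.

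Levels of several features, though not of all, rose or fell in order with the number of Havcr2 UMIs per cell. In the 14 mice with at least 5 cells at 0, at 1 and at 2 or more UMIs, TIM3 averaged 1622 ± 664, 4252 ± 1906 and 6157 ± 2081 antibody CPM in that order. Lag3 averaged 109, 221 and 325 CPM, Pdcd1 118, 199 and 314 CPM, Tnfrsf9 93.3, 208 and 319 CPM, and Rgs16 68.2, 238 and 431 CPM. Tcf7 averaged 115, 14.8 and 3.61 CPM, and Il7r 240, 165 and 117 CPM. Mki67 was higher only in the last group, with 151, 148 and 233 CPM. Cxcr6 (369, 642 and 573 CPM), Csf1 (59.4, 154 and 124 CPM) and Id2 (971, 1286 and 1154 CPM) were highest in the middle group. The CD103 antibody was lower only in the last group, with 4235, 4240 and 664 antibody CPM. Antibodies against some myeloid proteins rose as well, with 2956, 3382 and 5473 antibody CPM for Sirpa and 614, 630 and 1275 for CD68. That against CD11c fell (13418, 13058 and 9988), and that against CD163 was highest in the middle group (1573, 1888 and 1582). The myeloid genes Tyrobp (168, 205 and 342 CPM) and Fcer1g (239, 275 and 411 CPM) rose. The part of myeloid cells or RNA in the other levels was not tested. The median depth rose along the same order, with 5688, 6688 and 9050 gene UMIs, and its part in these levels was not tested. These values describe groups cut by the gene of the rule and carry no test.

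**Figure D4:**
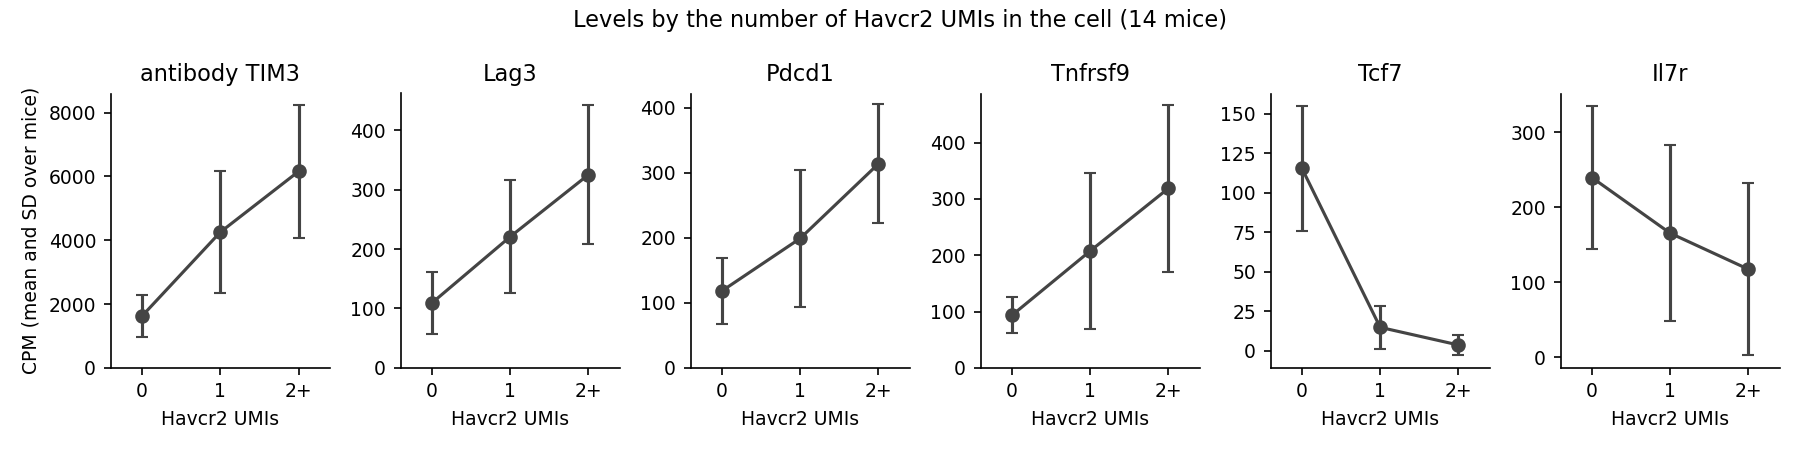
Mean levels in CPM (bars show the SD over 14 mice, linear axes) of the TIM3 antibody and of 5 genes in CD8 T cells with 0, 1 and 2 or more Havcr2 UMIs. The TIM3 antibody, Lag3, Pdcd1 and Tnfrsf9 increase from left to right, and Tcf7 and Il7r decrease.

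The third comparison asked whether the Havcr2-positive cells themselves differed between conditions. With 10 to 120 positive cells per mouse, 15 mice and 3146 genes tested, edgeR called 0 genes (0%) in each of the 6 contrasts. For anti-PD-1 against isotype over both genotypes, 240 genes had an unadjusted p under 0.05, the smallest adjusted p was 0.188, and DESeq2 called 1 gene. Within LysM-Cre mice 162 and within floxed mice 170 genes had an unadjusted p under 0.05, with 0 called by DESeq2. For LysM-Cre against floxed mice, 251 genes had an unadjusted p under 0.05 with anti-PD-1 (DESeq2 called 1) and 81 with isotype (DESeq2 called 0), and the interaction of genotype and antibody gave 111 (DESeq2 0). The difference of the anti-PD-1 response between Havcr2-positive and Havcr2-negative cells, tested over 3250 genes, also gave 0 calls (0%), with 199 at an unadjusted p under 0.05. Among 72 antibodies compared between anti-PD-1 and isotype, 0 passed (0%), 7 had an unadjusted p under 0.05 with edgeR and 12 with DESeq2, which also called 0.

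Levels of the genes that set these cells apart overlapped between the conditions. Havcr2 itself, which the rule used, had 270 ± 73.4 CPM (SD, n = 4) with anti-PD-1 and 233 ± 75.7 (n = 4) with isotype in LysM-Cre mice, and 199 ± 68.1 (n = 3) with anti-PD-1 and 255 ± 60.9 (n = 4) with isotype in floxed mice. Lag3 had 280 ± 65.3, 180 ± 97.8, 455 ± 148 and 317 ± 58.9 CPM in the same order, and Prf1 384 ± 182, 267 ± 172, 809 ± 451 and 468 ± 178 CPM. Pdcd1 had 262 ± 62.5, 187 ± 110, 260 ± 83.1 and 286 ± 29.2 CPM. Nr3c1 had 110 ± 32.2, 76.2 ± 18.9, 56.2 ± 20.4 and 95.5 ± 34.1 CPM. The library kit reads RNA from its 3′ end, and no source used here says which exon is floxed, so these levels check nothing about the deletion.

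Of the 5 genes with the smallest p over both genotypes, none of which passed with edgeR, each had a lower mean with anti-PD-1 in both genotypes. They were Ms4a6d, Zfp36l1 (−0.89), Zfp36 (−1.65), B4galt1 and Cd300c2 (−2.94). Ms4a6d, a gene of macrophages, had 19.7 to 42.6 CPM (median 22.7) in the 7 anti-PD-1 mice and 51.0 to 321 CPM (median 104) in the 8 isotype mice, without overlap (log2 change −2.28 ± 0.43, edgeR adjusted p = 0.188). DESeq2 called it (adjusted p = 0.0049), and so did edgeR without LysM-Cre isotype mouse 3 (adjusted p = 0.00194), where 7 genes passed, the other 6 being Saa3, Ccr1, Psap, Cd300c2, Fos and Cd74. The 7 tested macrophage markers had a median of −1.11 in this contrast, and their 12 genes summed to 2459 ± 685 CPM in the positive cells of anti-PD-1 mice and 3921 ± 1932 CPM in those of isotype mice. The dendritic cell markers summed to 378 ± 115 and 1915 ± 2612 CPM. The part of such RNA in these genes was not tested. B4galt1, a sugar transferase, had 11.1 to 45.9 CPM with anti-PD-1 and 52.7 to 100 CPM with isotype, again without overlap (−1.12, adjusted p = 0.389). Both genes were picked by their p in these same mice, so the lack of overlap is no further support. The share of all genes without overlap is not given.

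Comparing LysM-Cre with floxed mice given anti-PD-1, Tsc22d3 had the smallest p. Its levels were 95.7, 112, 186 and 400 CPM in the positive cells of LysM-Cre mice and 33.2, 78.7 and 47.5 CPM in those of floxed mice, without overlap (log2 change 2.17 ± 0.39, edgeR adjusted p = 0.111). The gene was picked by its p in these same mice, so the lack of overlap is no further support. DESeq2 called Tsc22d3 (adjusted p = 0.0217), and edgeR did so when mouse 3 of the LysM-Cre anti-PD-1 group was left out (adjusted p = 0.0224). With isotype, the LysM-Cre mice had 155, 64.2, 284 and 209 CPM and the floxed mice 57.4, 56.4, 216 and 133 CPM, which overlapped. Of 9 tested glucocorticoid response genes, 9 were fitted higher in LysM-Cre mice with anti-PD-1 (median 0.42, against −0.01 for all genes) and 8 with isotype (median 0.54, against 0.03), and none was called. Of all 3146 genes, 1557 were fitted higher with anti-PD-1 and 1712 with isotype. The list as a set was not tested. Nktr (1.05), Slfn8 (1.41), Wdr33 (1.39) and Cxcr3 (1.79) followed Tsc22d3, each at an adjusted p of 0.519. With isotype, the smallest p values were those of Hells, a chromatin remodeller of dividing cells (25.6 ± 8.13 CPM in LysM-Cre and 86.3 ± 31.7 CPM in floxed mice, −1.52), Hsph1, AW112010, Atraid and Hypk, at an adjusted p of 0.9996.

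Within floxed mice, Gzma had 1195, 177 and 1789 CPM in anti-PD-1 mice 1, 3 and 4 and 39.9, 203, 202 and 12.1 CPM in isotype mice (3.17 ± 0.81, edgeR adjusted p = 0.918), and these overlapped. Trpv2, Morc3, Tsc22d3 and Spp1 came next. Within LysM-Cre mice the list was Ms4a6d, Atraid, Zfp36l1, Sub1 and Cstb (adjusted p of 0.86 to 0.885). The interaction was led by S100a8, Gzma, Nktr, Mvb12a and Tsc22d3, and the S100a8 value rests on LysM-Cre anti-PD-1 mouse 3. The difference of response between positive and negative cells was led by Arhgap17, Ms4a6d, Psap, Gbp2 and Zfp36 (adjusted p of 0.76 to 0.779). Taken by list over both genotypes, with no gene called, anti-PD-1 gave medians of 0.43 for cell cycle genes (14 of 16 fitted higher), 0.46 for cytokines (9 of 9), 0.44 for cytotoxic genes (10 of 14) and −0.44 for interferon genes (14 of 16 fitted lower), against 0.01 for all genes. For inhibitory receptors the median was 0.0013 (4 of 8 fitted higher). Of all 3146 genes, 1632 were fitted higher and 1514 lower in this contrast, and no list was tested as a set.

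On the surface, none of the antibodies passed between treatments. TIM3 averaged 7252 ± 3126 antibody CPM in positive cells of the 7 anti-PD-1 mice and 4664 ± 1352 in those of the 8 isotype mice (log2 change 0.77 ± 0.26, edgeR adjusted p = 0.335), with ranges of 4770 to 13941 and 2443 to 6949 that overlapped. CD279, whose antigen is also the target of the treatment antibody, averaged 3071 ± 823 and 4019 ± 1120 (−0.34 ± 0.23, adjusted p = 0.512). MGL1 (−1.32), CD169 (−0.93), CD4 (−1.004), CD3 (−0.91) and the isotype control Hamster (−1.08) were also among those with an unadjusted p under 0.05.

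**Figure D5:**
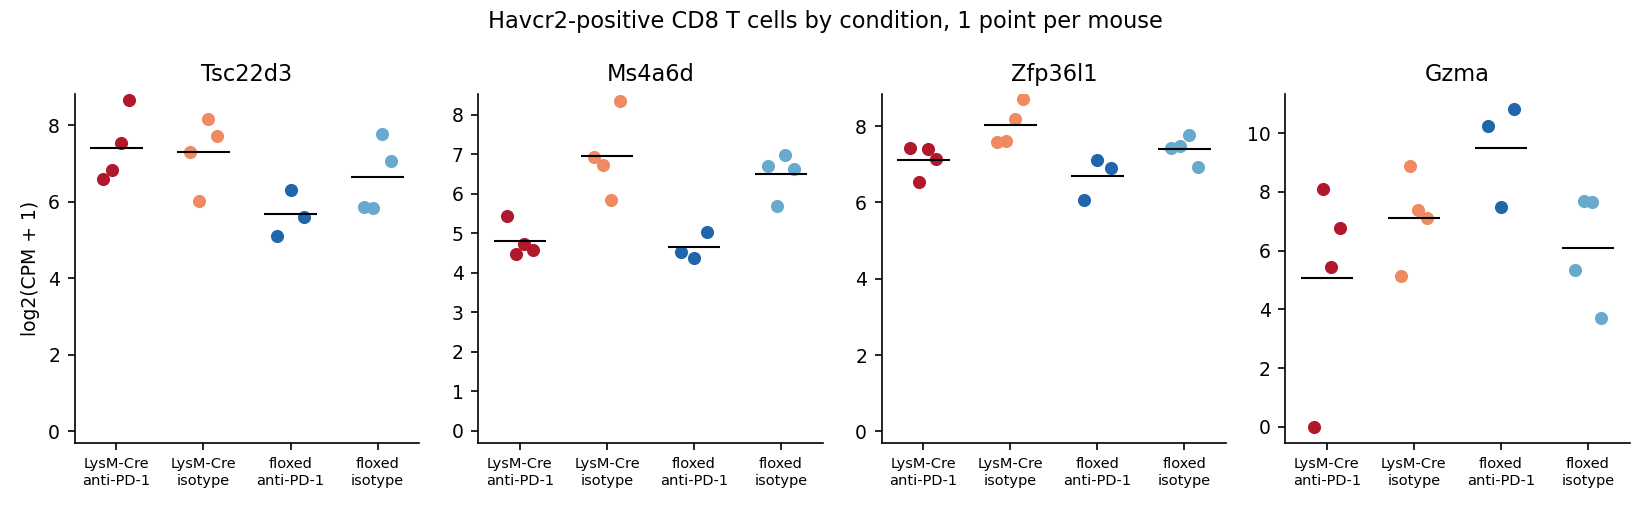
Levels of Tsc22d3, Ms4a6d, Zfp36l1 and Gzma in Havcr2-positive CD8 T cells by condition, as log2(CPM + 1), with 1 point per mouse and a line at the mean of the plotted values. Ms4a6d lies between 19.7 and 42.6 CPM with anti-PD-1 and between 51.0 and 321 CPM with isotype, and none of the 4 genes passed the edgeR test.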

How the data were processed

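The deposited matrices hold raw UMI counts of genes and antibodies per barcode in 2 pools. The authors made these counts with Cell Ranger 3.0.1 and mm10 per the submitters' processing notes, whereas the file headers name Cell Ranger 6.1.2. The pools list 15301 and 16614 barcodes, 32285 genes, 88 antibodies (89 in the labels) and 8 hashtags, with 176338827 and 221763950 gene UMIs. After the filters, 9889 and 10518 cells kept 1 hashtag, with medians of 9183 and 8871.5 gene UMIs. Of 805 barcodes listed in both pools, 27 were kept in both, none of them CD8 T cells.

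Cells were tied to mice by hashtag through the submitters' table, which names each a KO or Wildtype mouse with aPD-1 or Isotype treatment. KO was read as LysM-Cre and Wildtype as floxed. Mouse numbers follow pool and hashtag order and only name mice. The replicate is the mouse. Doublets were limited by the hashtag and C1q rules alone.

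Counts were summed per mouse and population where at least 10 cells were present, scaled by TMM and filtered by filterByExpr (antibodies by a total of at least 100 counts). The quasi-likelihood test of edgeR 4.0.16 was used, with Benjamini-Hochberg adjustment over all genes or antibodies and a threshold of 0.05, with DESeq2 1.42.0 as an alternative. Positive and negative cells come from the same animals, so the mouse was a block in that comparison. Condition contrasts used all 15 mice with enough cells and the pool as covariate. A standard error is the log2 change over the square root of the test's F. Shares were tested by exact permutation of mice, two-sided, and intervals cover counting error only. Genes outside the lists were named by size of change at an adjusted p under 0.05, an average of at least 10 CPM and the fitted sign in at least 3 of 4 mice, or by the 5 smallest p where none passed. The tests were tried on simulated data. Counts cover all genes and antibodies tested, and some single items are not reported here. The members and the gene lists were chosen with earlier results of these data known. Positions come from a RefSeq table of GRCm38.p6, in which 292 of 293 symbols matched. R 4.3.3, Python 3.11.15 and scipy 1.17.1 were used.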

Additional observations from a re-analysis of the deposited data

Results flagged for a closer look

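Of 55 groups of 4 mice examined for a mouse far from the others, 2 had one, and chance flags about 1 in 20 groups. Floxed isotype mouse 2 had 5.82% Havcr2-positive CD8 T cells among its assigned cells, and the nearest of the other floxed isotype mice had 2.65%. In the positive cells of LysM-Cre isotype mouse 4, Tnfrsf9 had 145 CPM, and the nearest of the other LysM-Cre isotype mice had 269 CPM.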

How the results depend on the processing

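Against 660 genes called between Havcr2-positive and Havcr2-negative cells, 1152 were called with no low count filter, 96 after thinning to 2000 UMIs, and, in settings chosen after seeing the data, 386 in pool E5, 255 in pool E6 and 12 with C1q at 0. The last 4 tested fewer genes or fewer mice. The thinned fit also classed cells by their thinned Havcr2 counts, and the fit with C1q at 0 held isotype mice only. Leaving out each mouse gave 486 to 724 genes and 20 to 24 antibodies. Against 22 antibodies, 14 were called by total antibody counts, 12 in pool E5, 14 in pool E6 and 0 by edgeR with C1q at 0 (12 at an unadjusted p under 0.05, DESeq2 not run there). Without the mouse as block, that is with no replicate block, 652 genes (598 shared with the 660) and 20 antibodies were called. Of 93 named genes called, 79 were called whichever mouse was left out, and of 22 antibodies 17. TIM3, CD223, CD279, Lag3, Prf1, Ifng and Tnfrsf9 lost their call only with C1q at 0.

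With no low count filter the condition contrasts in positive cells, each at 0 genes otherwise, called 67 (floxed, anti-PD-1 against isotype), 89 (LysM-Cre), 152 (both genotypes), 44 (LysM-Cre against floxed with anti-PD-1), 39 (with isotype), 19 (interaction) and 24 (difference of response), and the cause was not tested. DESeq2 called 1 gene over both genotypes and 1 for LysM-Cre against floxed with anti-PD-1. Leaving out each mouse gave 0 to 7 genes over both genotypes, 0 to 1 in LysM-Cre mice, 0 to 1 for LysM-Cre against floxed with anti-PD-1, 0 to 1 antibodies, and 0 in the other contrasts.

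For the share of CD8 T cells, leaving out each mouse gave differences of 17.2 to 24.0 points in LysM-Cre and 3.14 to 15.8 in floxed mice for anti-PD-1, and of −14.0 to −8.75 for LysM-Cre against floxed with isotype. For the share of assigned cells it gave 0.171 to 0.947 in LysM-Cre and −2.02 to −0.741 in floxed mice. With anti-PD-1 the genotype difference of −0.85 ran from −7.37 to 5.34, was 3.01 without LysM-Cre mouse 1 and 5.34 without floxed mouse 4, and was 1.76 with at least 2 Havcr2 UMIs. Values of opposite sign were found for Mgp without the deepest 10% of cells (0.0655) and, with C1q at 0, Id2 (−0.0187), Pcna (−0.0843), Stmn1 (−0.201), Hmgb2 (−0.0889) and Ifit1 (0.0746). The causes were not tested. Fits with C1q at 0 and at least 10 cells were not run, nor, for the condition contrasts other than that of genotype with isotype, fits with at least 2 Havcr2 UMIs or at least 20 cells, nor the fit over both genotypes with C1q of at most 2, since too few mice were left. The 10 to 120 positive cells per mouse limit the depth of these sums, and 0 calls do not show that the conditions were alike.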
